A study of Homo sapiens with 3 samples.

Results

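Tetraspanins and L6 proteins were examined in Caco-2 cells, an established human colorectal cancer line with features of enterocytes, in which the transcript OCC-1 had been depleted. The 10 genes were TSPAN1, TSPAN3, TSPAN8, CD9, CD63, CD151, TM4SF1, TM4SF4, TM4SF5 and TM4SF20, out of 18132 genes on the array. All probe sets annotated to 1 of these genes and to no other were used, 27 of 49395. The genes were picked knowing how they differed between OCC-1 knockdown and control, TSPAN8 and TM4SF4 above all. Their differences are therefore given as a description without a test.

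The series held 3 arrays of total RNA, 1 per culture. OCC-1 knockdown comprised 1 culture with hairpin shOCC-1-1 (line 1) and 1 with hairpin shOCC-1-2 (line 2), and the control was 1 culture with the control hairpin shCTRL. All had been transduced with lentivirus, exposed to puromycin (1 µg per ml) for 5 days, then left without the drug for 24 hours, in medium with 20% serum. The labels do not state whether lines were clonal, and with a single array per line no line has a replicate.

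Tetraspanins are small proteins that cross the membrane several times and gather integrins, proteases and other receptors into membrane domains. L6 proteins have a similar layout but belong to a separate family. In intestinal epithelium and its tumours both families are known for roles in adhesion, migration and vesicle release, and TSPAN8 was first studied as an antigen of gastrointestinal carcinomas.

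OCC-1 (C12orf75) had an intensity of 518 in line 1 and 397 in line 2, against 1219 in control, so the target was lower in both lines labelled as knockdown. Array medians were 182.5 in line 1, 183.6 in line 2 and 185.5 in control. Of 9 markers of enterocyte-like colorectal cells 8 were above the intensity filter used here, a mean log2 level over the 3 arrays at or above that of the median probe set (7.52, an intensity of 184). LGALS4 was under it, with 129 and 141 in lines 1 and 2, against 156 in control. Of markers of other cell types, 3 of 6 fibroblast genes, 3 of 5 leukocyte genes and 1 of 4 endothelial genes were above the filter. Of all 18132 genes 11329 were. On the control array 9 background control probe sets were also brighter than the filter, so passing it does not show expression. The brightest marker of other cell types was PDGFRA, at 1209 and 1023 in lines 1 and 2, against 1016 in control. The summed intensity of the leukocyte list was 914 and 891 in lines 1 and 2, against 954 in control, with its defining gene PTPRC at 77.2 and 80.1, against 75.5. The fibroblast list summed to 2126 and 1910, against 1911, and the endothelial list to 608 and 658, against 663. With so few genes of these 3 lists above the filter, nothing is read from their limma calls.

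The genes with the largest differences were TSPAN8 and TM4SF4, whose start-site sequences are therefore shown, from RefSeq (GRCh38.p14). Each window covers 250 bases before to 50 bases after an annotated start, read 5′ to 3′. Capitals mark matches on either strand. The letters searched were TATAAA for the TATA box, CCAAT for the box of that name, GTTAAT for a part of the HNF1 site, TGATAA for the GATA site and TTTATG for the CDX site. HNF1, GATA and CDX factors are transcription factors of gut and liver epithelium.
TSPAN8, minus strand, chr12:71157760-71158059: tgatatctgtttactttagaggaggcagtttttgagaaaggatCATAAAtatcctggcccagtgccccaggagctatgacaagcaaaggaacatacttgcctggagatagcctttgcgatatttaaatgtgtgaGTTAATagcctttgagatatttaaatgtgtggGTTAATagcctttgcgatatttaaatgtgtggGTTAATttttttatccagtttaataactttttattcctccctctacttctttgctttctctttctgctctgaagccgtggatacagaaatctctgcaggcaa
TM4SF4, plus strand, chr3:149474447-149474746: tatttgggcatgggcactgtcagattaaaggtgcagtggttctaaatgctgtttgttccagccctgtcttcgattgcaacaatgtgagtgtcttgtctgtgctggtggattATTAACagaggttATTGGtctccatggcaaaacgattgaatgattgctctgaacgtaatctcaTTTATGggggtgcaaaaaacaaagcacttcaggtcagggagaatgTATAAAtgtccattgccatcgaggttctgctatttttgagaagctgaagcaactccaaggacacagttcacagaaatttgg

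The TSPAN8 window held GTTAAT 3 times on the strand of the gene, starting 116, 84 and 52 bases before the start site. These copies are not independent, because they end neighbouring repeats of 32 bases: the first and the second each had 1 mismatch to the last. A TTTATG match lay 207 bases before the start on the opposite strand. Of 35116 RefSeq windows of this length 6.88% held GTTAAT on either strand and 0.0285% held it at least 3 times. In the window of the other annotated TSPAN8 start the same TTTATG match was the only one. The TM4SF4 window held TATAAA 31 bases before the start, TTTATG at 76 bases, CCAAT at 126 bases and GTTAAT at 139 bases, the last pair on the opposite strand. Matches to TATAAA occurred in 11.5% of all windows, to TTTATG in 10.6%, to CCAAT in 34.6% and to TGATAA in 7.53%. None of the printed matches overlapped another. These are letter matches, and binding was not measured.

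TSPAN8 is a tetraspanin of gastrointestinal epithelium that forms complexes with integrins and EPCAM. Its single probe set had an intensity of 1823 in line 1 and 1961 in line 2, against 3874 in control. Lines 1 and 2 were at 47.1% and 50.6% of control, far below it and close to each other. The mean log2 difference, knockdown minus control, was -1.03 ± 0.07 (SD, n = 2 lines), the 5th lowest of the 11329 genes above the filter. The lines differed from each other by only 0.10 on the log2 scale. TSPAN8 was brighter on the control array than all 23 background control probe sets.

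TM4SF4 encodes an L6 protein of intestine and liver. Its single probe set read 209 in line 1 and 220 in line 2, against 347 in control. This was a dim signal, and 6 of the 23 background control probe sets were brighter on the control array. Lines 1 and 2 were at 60.1% and 63.3% of control, and the mean log2 difference of -0.70 ± 0.05 (SD, n = 2 lines) was the 13th lowest of 11329. After normexp background correction without an offset its difference was -0.90. For neither TSPAN8 nor TM4SF4 was there a further probe set to compare.

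**Figure D1:**
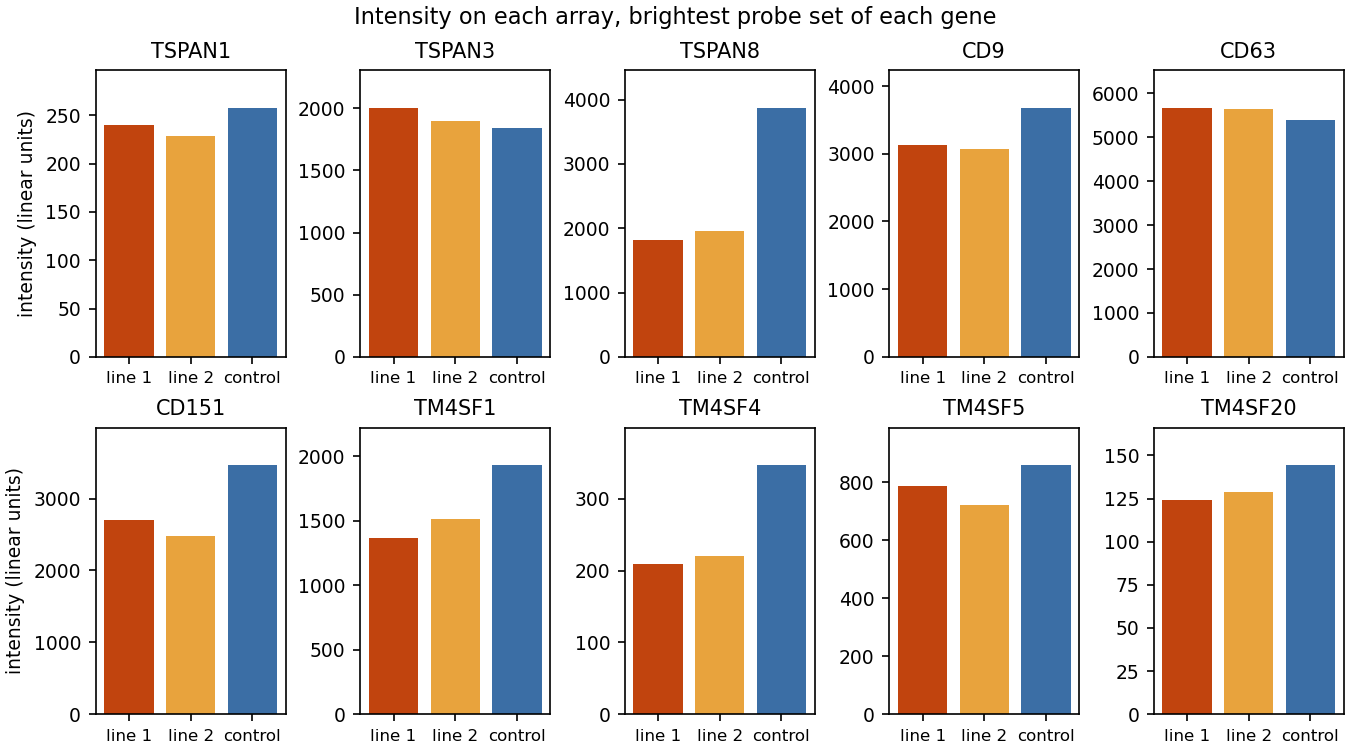
Intensity (linear units, from 0) of the brightest probe set of each gene on the arrays of line 1, line 2 and control, 1 array per bar and so without error bars. TSPAN8 (1823 and 1961, against 3874) and TM4SF4 (209 and 220, against 347) show the widest gaps, and scales differ between panels.

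A size rule asked for a 1.5-fold difference or more, in 1 direction, with each hairpin. By it TSPAN8 and TM4SF4 were lower and 0 of the 10 genes were higher. Over all 11329 genes 0.159% were lower by this rule and 1.36% higher, and since the genes were chosen on this contrast nothing is read from their count. Of the 9 genes above the filter, the brightest probe set was below control in both lines for 7 and above it in both for CD63 and TSPAN3 (CD63 turning to -0.01 on average after cyclic loess and after quantile normalization), where 45.7% of all genes were below and 36.5% above. Both lines share the control array, so agreement between them includes whatever that array contributes. Fewer cells of a kind and less RNA per cell cannot be told apart in such bulk RNA.

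TM4SF1, the L6 antigen of many carcinomas, lies next to TM4SF4 on chromosome 3. The brightest of its 4 probe sets read 1363 in line 1 and 1511 in line 2, against 1932 in control, with a mean log2 difference of -0.43 ± 0.10 (SD, n = 2 lines). All 3 probe sets above the filter were below control in both lines, but by unequal amounts: from -0.50 to -0.23 in line 1 and from -0.36 to -0.08 in line 2. Line 1 was the lower line in each of them. The dimmest probe set, at 144, 157 and 136 in line 1, line 2 and control, lay under the filter and slightly above control.

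The other L6 genes differed less. TM4SF5, a growth-related L6 protein studied in liver cancer, read 786 in line 1 and 723 in line 2, against 860 in control, or 91.4% and 84.0% of control. TM4SF20, an L6 protein of intestine that restrains activation of the membrane-bound factor CREB3L1, was under the filter with both of its probe sets. The brighter one read 124 and 128 in lines 1 and 2, against 144 in control, and 10 background control probe sets were brighter than that on the control array. The other differed from control by -0.05 and 0.01 on the log2 scale, so TM4SF20 has no level clear of background here.

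CD151 binds laminin receptors of the integrin family and holds them in tetraspanin domains. Its 5 probe sets were all above the filter and all below control in both lines. The brightest read 2701 in line 1 and 2477 in line 2, against 3468 in control, which is 77.9% and 71.4%. Across the 5 the log2 difference ran from -0.36 to -0.13 in line 1 and from -0.49 to -0.32 in line 2. Line 2 was the lower line for every one of them, the reverse of TM4SF1. Of these probe sets 4 carry the suffix that Affymetrix gives to sets with probes matching other transcripts. Sets of 1 gene can also share probes, so these are not 5 independent readings. The same suffix is on the brightest sets of CD9 and CD63 and on some other sets of CD9 and TM4SF1.

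CD9, a widely expressed tetraspanin of adhesion and membrane fusion, had 9 probe sets that did not go one way. The brightest read 3126 in line 1 and 3065 in line 2, against 3681 in control, at 84.9% and 83.3% of it. Of the 6 above the filter 5 were below control in both lines, with log2 differences from -0.33 to -0.16 in line 1 and from -0.28 to -0.18 in line 2. The other was the next brightest and lay above control, with 2743 and 2661 in lines 1 and 2, against 2449 in control. The remaining 3 sets, under the filter at intensities from 117 to 136, lay between -0.02 and 0.17 of control on the log2 scale. A single direction for CD9 thus depends on which of its probe sets is read.

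CD63, the tetraspanin of late endosomes, lysosomes and exosomes, was above control with both probe sets as deposited. The brightest read 5673 in line 1 and 5644 in line 2, against 5397 in control, a mean log2 difference of 0.07 that turned to -0.01 after cyclic loess and after quantile normalization. Its other probe set read 4002 and 3951 in lines 1 and 2, against 3371 in control, or 118.7% and 117.2%. TSPAN3, a broadly expressed tetraspanin, read 2004 in line 1 and 1893 in line 2, against 1839 in control. A further probe set annotated to both TSPAN3 and ANKH was left out by the rule. TSPAN1, a tetraspanin of secretory epithelia, was dim at 240 and 229 in lines 1 and 2, against 258 in control, where 7 background control probe sets were brighter.

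**Figure D2:**
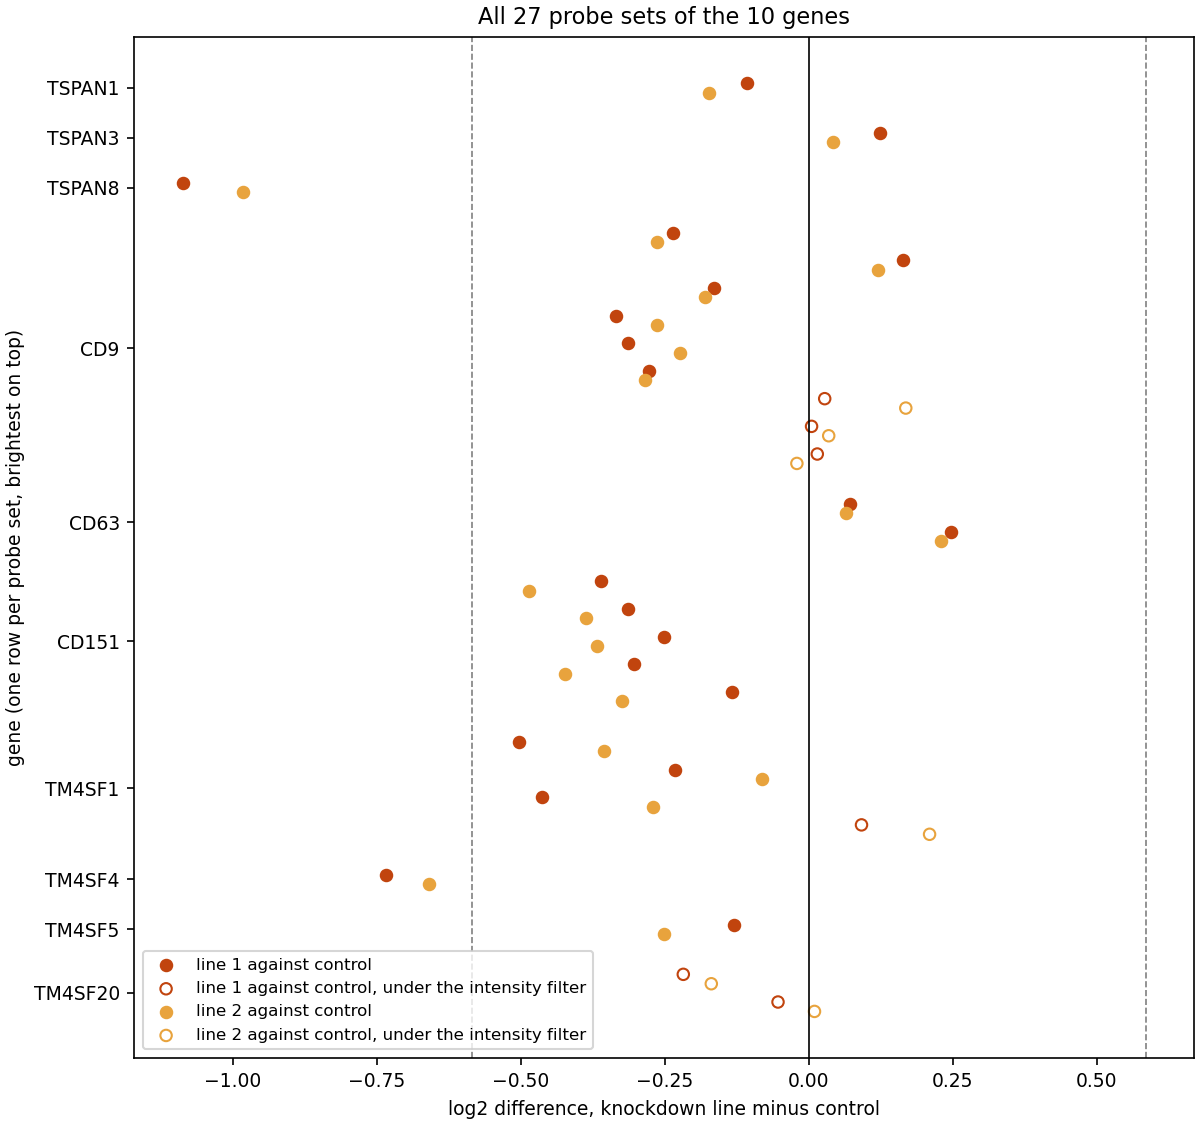
Log2 difference from control of each of the 27 probe sets, 1 row per probe set with the brightest of each gene on top, for line 1 and line 2; open circles lie under the intensity filter and dashed lines mark 1.5-fold. TSPAN8 and TM4SF4 lie beyond the dashed line with both lines, CD151 lies to the left throughout, and the CD9 sets above the filter fall on both sides of 0.

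Taking all probe sets together, 21 of 27 were above the filter, of which 17 were below control in both lines and 4 above it in both. The 4 were a CD9 set, both CD63 sets and that of TSPAN3. Of the 17, CD9 gave 5 and CD151 gave 5. By brightest set, 45.7% of all genes above the filter were below control in both lines and 36.5% above it. Sets of 1 gene can share probes and the genes were chosen on this contrast, so nothing is read from these counts. The background control probe sets of the array also differed from control. Those with 17 to 25 G or C bases per probe, 9 in all, had log2 differences from control from -0.37 to -0.17 in line 1 and from -0.23 to -0.15 in line 2. Sets with fewer such bases reached 0.06 and 0.04, but those with 10 to 16 were below control in both lines. At 16 the differences were -0.16 in line 1 and -0.14 in line 2. The files give no base composition for the probes of these genes, so the part of this pattern in their differences was not tested. By their brightest sets TSPAN8, TM4SF4 and TM4SF1 lay below all 23 background differences in both lines. CD151, CD9 and TM4SF5 did so in line 2 but not in line 1, and TSPAN1 in neither.

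**Figure D3:**
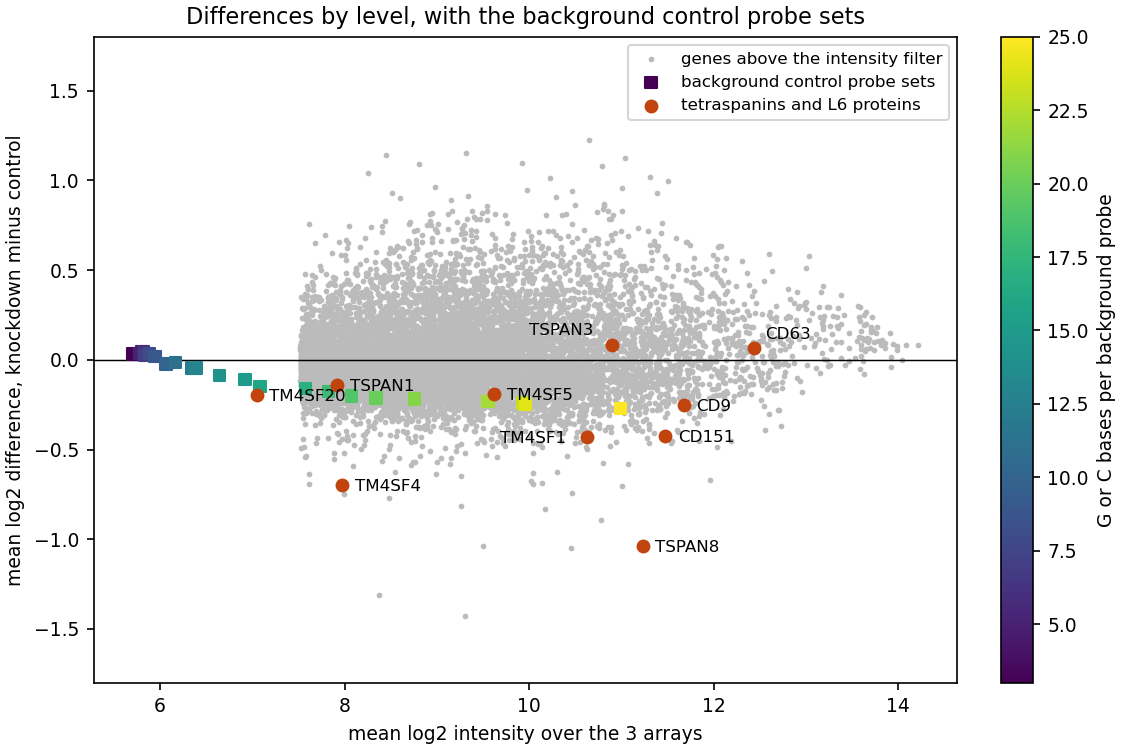
Mean log2 difference of both lines from control (y) against mean log2 intensity over 3 arrays (x) for all genes above the filter (grey), the 10 genes (red, brightest probe set) and the background control probe sets (squares, coloured by G or C bases per probe). The background squares slope down from about 0 at few G or C bases, with TM4SF5 and TSPAN1 among them, while TM4SF4 and TSPAN8 lie well under them.

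The knockdown lines were close to each other for all 10 genes. The brightest probe sets differed between line 1 and line 2 by 0.15 at most on the log2 scale, for TM4SF1, where line 1 was lower. CD151 and TM4SF5 were lower in line 2, by 0.13 and 0.12. None of the 10 was 1.2-fold apart between lines, as 2.65% of all genes were (0.00883% at 1.5-fold), and the SD of this difference over 11329 genes was 0.11. The SD of line minus control was 0.22 for either line. In that figure the knockdown and the lone control array cannot be told apart. With 1 array per line a difference between the lines has no test.

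The genes whose pair of log2 differences lay nearest to those of TSPAN8, by Euclidean distance over both lines, were TFF1 (distance 0.12), GPX2 (0.14) and AKR1C1 (0.30). TFF1, a trefoil peptide of the mucosa, read 582 in line 1 and 557 in line 2, against 1170 in control. GPX2, the gastrointestinal glutathione peroxidase, read 1132 and 1062, against 2270. Nearest to TM4SF4 were MT2A, a metallothionein, and AKR1C2, an aldo-keto reductase, both at 0.01, then FLRT3, a membrane adhesion protein, at 0.07. MT2A, AKR1C2 and FLRT3 were at -0.39, -0.33 and -0.58 when all probe sets of a gene were averaged. From the brightest set they were at -0.69, -0.71 and -0.74. AKR1C1 and AKR1C2 are near-identical in sequence and may share signal. These are likenesses over 2 differences that have a control array in common.

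**Figure D4:**
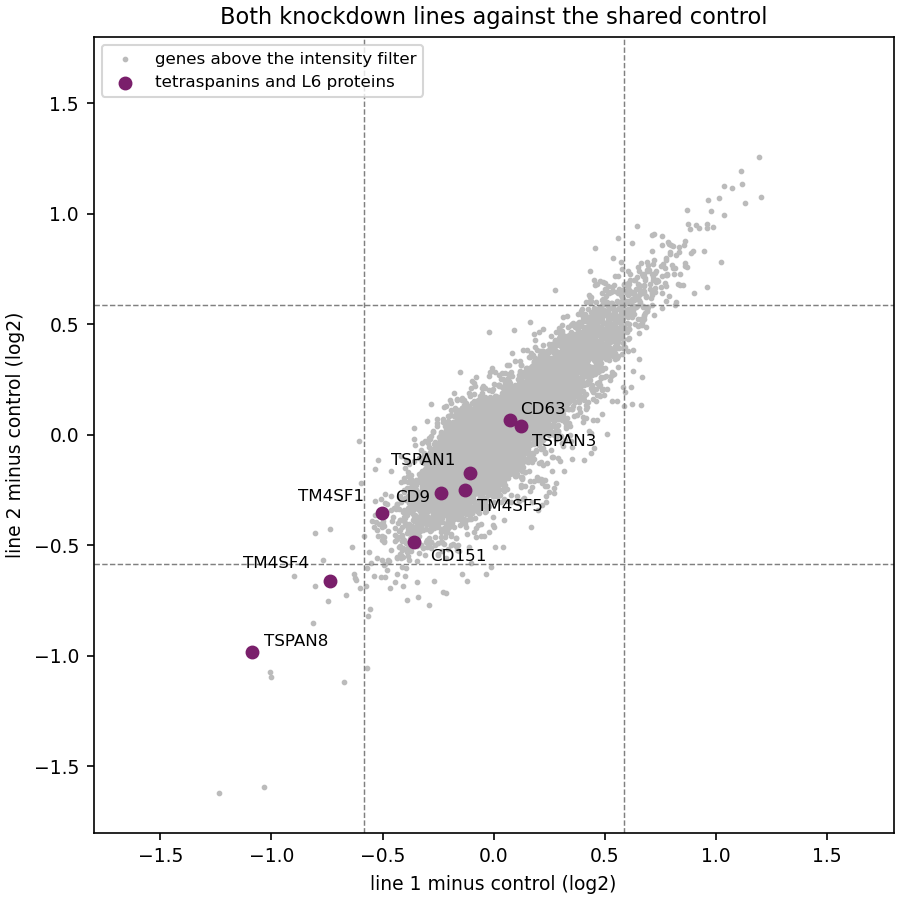
Log2 difference from control in line 2 (y) against that in line 1 (x) for 11329 genes (grey) and the 9 genes above the filter (purple), with dashed lines at 1.5-fold. TSPAN8 and TM4SF4 lie in the lower left corner, CD151 and TM4SF1 inside the dashed lines, and CD63 and TSPAN3 just above 0 (CD63 at -0.01 after cyclic loess and after quantile normalization).

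Of the genes beside TSPAN8 and TM4SF4 on their chromosomes, TM4SF1 was lower too, as given above. The neighbours of TSPAN8 were PTPRR, a receptor tyrosine phosphatase under the filter at 152 and 146 in lines 1 and 2, against 155 in control, and LGR5, a stem cell receptor of the crypt. LGR5 was dim at 254 in line 1 and 183 in line 2, against 215 in control, so the lines lay on either side of control. TM4SF4 lies between TM4SF1 and WWTR1, the transcriptional coactivator TAZ. The brightest WWTR1 probe set read 1152 in line 1 and 1017 in line 2, against 803 in control, and its log2 difference was 0.43 ± 0.09 (SE) with limma adjusted p = 0.030. Another WWTR1 set was at 0.26 and 0.10 in lines 1 and 2, but the last was at -0.37 and -0.34, and the mean of all sets was 0.09. TM4SF18, the L6 gene on the far side of TM4SF1, was under the filter with 98.2 and 102.5 in lines 1 and 2, against 107.6 in control.

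The rest of both families was examined next, as 29 further genes of which 28 had a probe set and 19 were above the filter. TSPAN31, a tetraspanin gene amplified in some sarcomas, was the only one of the 19 called by limma. It read 540 in line 1 and 510 in line 2, against 401 in control, a log2 difference of 0.39 ± 0.08 (SE, limma adjusted p = 0.024), and its other probe set was higher by less, at 0.19 and 0.13. By limma 1 of the 19 rose and 0 fell, against 9.63% and 3.06% of all 11329 genes. By the size rule 0 were called either way, where 0.159% of all genes were lower and 1.36% higher. Over the 19 genes the median was -0.02 (line 1) and -0.06 (line 2) on the log2 scale, beside -0.03 and -0.02 over all genes.

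Several of these genes bear on the ones above. CD81, the close relative of CD9, read 2354 in line 1 and 2257 in line 2, against 2449 in control (limma adjusted p = 0.47). TSPAN13 read 4745 and 5321, against 4177 (limma adjusted p = 0.10), and TSPAN15, a partner of the protease ADAM10, 785 and 836, against 921 (limma adjusted p = 0.17). CD82, a suppressor of metastasis, was dim at 240 and 248, against 258 (limma adjusted p = 0.50). TSPAN6, which acts in endosomal sorting, read 2619 and 2459, against 2656 (limma adjusted p = 0.61), but its 7 other probe sets ran from 0.14 to 0.67 in line 1 and from -0.07 to 0.54 in line 2. Of tetraspanins typical of leukocytes, CD53 was under the filter, while CD37 and TSPAN32 were above it. CD37 read 438 and 469 in lines 1 and 2, against 489 in control (limma adjusted p = 0.39). TSPAN32 read 335 and 329, against 356 in control.

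Partners of tetraspanins and L6 proteins were taken from a list of 31 genes, of which 28 were above the filter. By limma 5 rose and 2 fell, where 9.63% and 3.06% of all genes did. By the size rule 0 were called, where 1.36% of all genes were higher and 0.159% lower. The genes that rose were LAMP2, EPCAM, ITGA6, ITGB1 and ADAM17, and those that fell were ITGA2 and CREB3L1. The 28 had medians of -0.04 (line 1) and -0.01 (line 2) on the log2 scale.

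EPCAM, the epithelial adhesion molecule that joins TSPAN8 in membrane complexes, read 5602 in line 1 and 5911 in line 2, against 3930 in control. It was higher by 0.55 ± 0.08 (SE, limma adjusted p = 0.009), and its 2 other probe sets had like differences, from 0.53 to 0.56 in line 1 and from 0.55 to 0.58 in line 2. EPCAM is also one of the epithelial markers, and the summed intensity of all 9 markers was 34134 in line 1 and 34693 in line 2, against 31326 in control. By limma 2 of the 8 above the filter rose, EPCAM and CDH1, and 0 fell, where 9.63% and 3.06% of all genes did. CDH1, the epithelial cadherin, read 5033 and 4891 in lines 1 and 2, against 3799 in control, while CDH17 read 3169 and 2961, against 3387. The part of this in the values of the other genes was not tested.

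Among integrins, subunits went opposite ways. ITGA2, the collagen receptor subunit, read 371 in line 1 and 363 in line 2, against 551 in control (-0.59 ± 0.07 SE, limma adjusted p = 0.0066), while its other probe set was at only -0.08 and -0.16. ITGA6, the laminin receptor subunit that binds CD151, read 1030 and 1038, against 822 in control (0.33 ± 0.07 SE, limma adjusted p = 0.032). Its other set was higher by more, at 0.59 and 0.48, and after normexp without offset the call was lost (adjusted p = 0.053) at a difference of 0.35. ITGB1, the subunit common to both receptors, read 5467 and 5622, against 4466 (0.31 ± 0.07 SE, limma adjusted p = 0.040), and its call was lost under cyclic loess (adjusted p = 0.065), quantile normalization and normexp without offset (0.072 each). ITGA3, another laminin receptor subunit, read 209 and 210, against 202 (limma adjusted p = 0.68).

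Of the remaining partners, LAMP2, a lysosomal membrane protein found where CD63 resides, read 1766 in line 1 and 1801 in line 2, against 1214 in control (0.56 ± 0.07 SE, limma adjusted p = 0.0078). Its 4 other probe sets ran from -0.01 to 0.39 in line 1 and from -0.16 to 0.26 in line 2, and with all sets averaged the adjusted p was 0.095. LAMP1 read 6158 and 6227, against 6961 (limma adjusted p = 0.17). CREB3L1, the membrane-bound transcription factor held back by TM4SF20, read 825 and 802 in lines 1 and 2, against 1077 in control (-0.40 ± 0.07 SE, limma adjusted p = 0.018), with no other set above the filter. ADAM17, a protease regulated by CD9, read 1069 and 1032, against 851 (0.30 ± 0.08 SE, limma adjusted p = 0.044), but the adjusted p was 0.40 with all its sets averaged and 0.069 after normexp without offset. ADAM10 read 198 and 191, against 199 in control (limma adjusted p = 0.81), and CLDN7, a tight junction protein of the TSPAN8 and EPCAM complex, 1091 and 1100, against 1228 (limma adjusted p = 0.18).

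**Figure D5:**
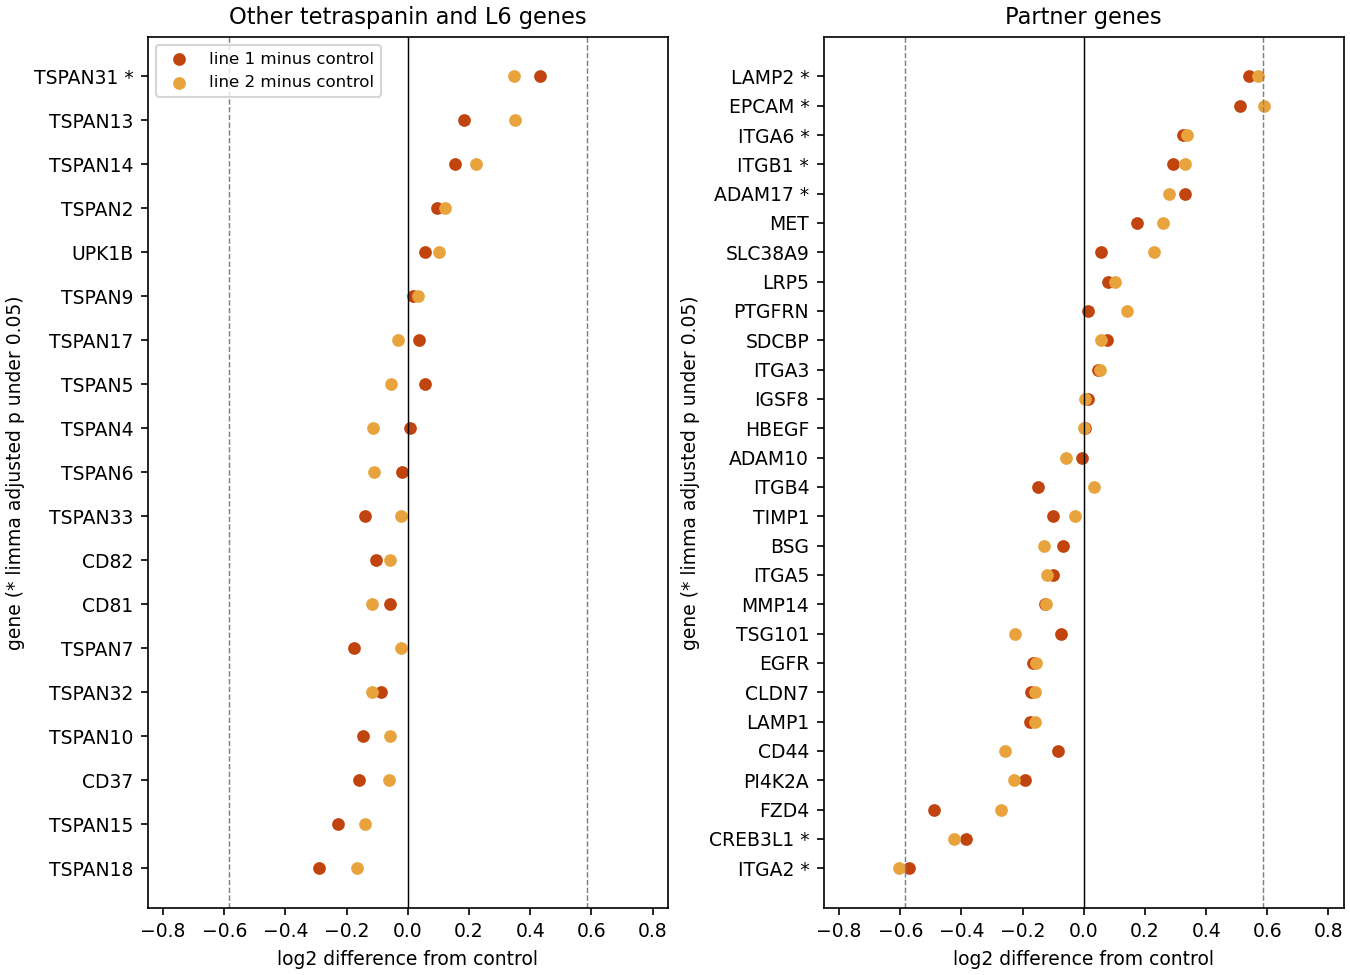
Log2 difference from control in line 1 and line 2 for the other tetraspanin and L6 genes (left, 19 genes) and the partner genes (right, 28 genes) above the filter, ordered by mean difference, with dashed lines at 1.5-fold and stars for a limma adjusted p under 0.05. TSPAN31 is the only starred gene on the left, and on the right EPCAM and LAMP2 stand at one end and ITGA2 and CREB3L1 at the other.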

How the data were processed

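Total RNA of 3 Caco-2 cultures was measured on an oligonucleotide array. The authors' deposited values were 1 linear intensity per probe set and array, and RMA is named without version or settings in the submitters' processing notes. Background correction and scaling are not given in the sources used here. Log2 values had been planned for; the deposited intensities ran from 50.1 to 19619 so log2 was taken before any comparison. Per the labels, lentivirally transduced cells were lysed in Trizol and cRNA was labelled with biotin. No arrays were identical. The number of arrays limits all precision.

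Gene names came from the platform's annotation and were updated by gene identifier (NCBI RefSeq, GRCh38.p14); 44988 had 1 symbol, and 0 symbols changed. Each gene was represented by its brightest probe set, and 11329 of 18132 genes passed the filter. In limma 3.58.1 under R 4.3.3, with lmFit, then eBayes, a two-sided test and Benjamini-Hochberg adjustment over 11329 genes at 0.05, 2 knockdown arrays were compared with 1 control array, with 1 residual degree of freedom and 6.96 after moderation. This takes the lone control to vary as the knockdown arrays do, and p-values measure only the spread between 2 lines. The simulation that follows drew the noise of its control from that same spread. Its count of false calls therefore says nothing of a control array that deviates by more. On data simulated for this comparison limma found 100 of 100 genes changed by log2 0.7 and the size rule 82, with 0 of 11129 unchanged genes called by either. Smaller changes were not simulated. All limma calls named outside the members were smaller than 0.7, so this recovery does not bear on them. Noise was drawn across genes of like level, which does not keep the spread of each gene, so the real data can hold more false calls.

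The members, lists and named genes were chosen with earlier results of these data known. Named were all members, family and partner genes called by limma or by size, neighbours of TSPAN8 and TM4SF4, and the 3 nearest patterns of each; other family and partner genes given were added after their values were seen. Alternatives were mean of all probe sets, cyclic loess, quantile, normexp, no filter, other sizes, an intensity trend and each line alone. Python 3.11.15 with numpy 2.4.6, pandas 2.3.3 and matplotlib 3.10.9 was used.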

Additional observations from a re-analysis of the deposited data

How the results depend on the processing

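No paired analysis was possible because both knockdown lines share 1 control array. TSPAN8 and TM4SF4 stayed at least 1.5-fold lower in both lines with cyclic loess, quantile normalization and both normexp settings. Averaged probe sets, no filter, 1.3-fold and either line alone could not have changed this. Each gene has a single probe set, so averaging left its value as it was. Both genes were already above the filter, 1.3-fold is a looser cut, and the rule already asked for 1.5-fold in each line. At 2-fold 0 genes of the families were called, TSPAN8 being 1.98-fold lower in line 2. OCC-1 lay between -1.62 and -1.24 with either line alone. Over all genes 18 were lower and 154 higher by the size rule. These became 9 and 44 with averaged probe sets, 31 and 245 with normexp without offset, 106 and 602 at 1.3-fold, and 4 and 8 at 2-fold. With a single line 24 to 46 were lower and 212 to 219 higher. Limma called 1438 of 11329 genes, and 2208 of 18132 without the filter. Degrees of freedom after moderation were 6.96 with the filter and 16.1 without it, and the cause of the larger count was not tested. Without the filter the other tetraspanin and L6 genes called were 2, TSPAN31 and TSPAN12. Partner genes called numbered 4 with normexp without offset (CREB3L1, EPCAM, ITGA2 and LAMP2), against 7; the cause was not tested. ITGA6 then had an adjusted p of 0.053 and ADAM17 one of 0.069. Dim signals near the background control probe sets limit TM4SF4, TSPAN1 and TM4SF20, and also ADAM10, ITGA3, ITGB4, LGR5, CD82 and TSPAN32.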
